A study of Mus musculus with 24 samples.

Results

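The genes of the histone demethylases UTX and JMJD3 and of the MLL3/4 methyltransferase complexes were followed in mouse embryonic stem cells (ESCs). The 10 genes were chosen by symbol: Kdm6a (UTX), Kdm6b (JMJD3), Kmt2c (MLL3), Kmt2d (MLL4), Ncoa6, Paxip1, Pagr1a, Wdr5, Rbbp5 and Ash2l. All 10 were present in the deposited table of 26264 genes, and all 10 passed the filter on low counts in both clones. PolyA RNA of 2 ESC clones was sequenced, UTX-AID and BAP1-AID, in which an auxin-inducible degron (AID) with an HA tag was fused to UTX or to BAP1, a deubiquitinase of histone H2A. Both clones also express TIR1, the plant protein that brings AID-tagged proteins to degradation once indole-3-acetic acid (IAA, an auxin) is added. Cells were collected without (−IAA) or with IAA (+IAA) at 0, 3 and 6 h of retinoic acid (RA), in duplicate, which gave 12 groups and 24 libraries. The paper states that IAA was given for 2 h ahead of RA. Time since IAA was added thus grew with hours of RA, and the 2 cannot be told apart in the +IAA arm. The RA medium lacked leukemia inhibitory factor, so that RA and loss of this factor cannot be told apart. Each tagged line was a single clone, and the vehicle given to −IAA cells was not stated. The labels do not say whether replicates were separate cultures, so the p-values measure the spread between these libraries, which may be technical.

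UTX and JMJD3 remove methyl groups from lysine 27 of histone H3 (H3K27), the mark laid down by Polycomb repressive complex 2. UTX is a subunit of the MLL3 and MLL4 complexes, which monomethylate lysine 4 of histone H3 (H3K4) at enhancers. Ncoa6, Paxip1 and Pagr1a encode subunits particular to these complexes, whereas Wdr5, Rbbp5 and Ash2l encode core subunits that all mammalian COMPASS methyltransferases share. In RA-treated ESCs the complexes have been studied at Hox clusters and other genes held in a bivalent chromatin state. The comparisons below ask whether the transcripts of these genes changed when the UTX protein was degraded, and whether RA changed them.

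The libraries held 42018795 to 54034789 estimated counts each, and the level of a single gene is given as CPM, the standard scaling of its count by the library's total, here after trimmed-mean (TMM) scaling of the totals. Replicates of a group correlated with r = 0.982 to 0.986 across genes on the log2 scale. The AID acts on the protein, so that the Kdm6a transcript is no check of UTX depletion. The response to the 2 agents was present in both clones. Cyp1a1, a target of the aryl hydrocarbon receptor, to which auxins bind, rose with IAA by 5.09 ± 0.35 (log2) in UTX-AID and by 5.67 ± 0.23 in BAP1-AID. Cyp26a1, an RA target that encodes an RA-degrading enzyme, was higher at 6 h of RA by 7.93 in UTX-AID and by 8.95 in BAP1-AID. All 7 ESC markers examined were above 1 CPM in every library, and their summed level was 3594 to 4061 CPM in UTX-AID and 3405 to 4380 CPM in BAP1-AID. The 5 fibroblast feeder markers summed to at most 0.93 CPM in any library. The clones differed in Y-linked transcripts: 12 UTX-AID libraries held 0 to 24 counts each over 83 Y-linked genes, and BAP1-AID libraries held 3520 to 6668.

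All genome positions are on mm39 (GRCm39), with gene models of GENCODE. Kdm6b lies on chr11:69289334-69304501 on the minus strand with 23 exons, and Kdm6a on chrX:18028776-18146877 on the plus strand with 29 exons. The 250 bases directly upstream of Kdm6b are shown because it is the gene that RA raised most among the 10 (given below). They lie outside the gene, at chr11:69304502-69304751 on the minus strand, and capitals mark the single match to a nuclear receptor half-site, AGGTCA, which reads in the opposite orientation in this window.
Kdm6b: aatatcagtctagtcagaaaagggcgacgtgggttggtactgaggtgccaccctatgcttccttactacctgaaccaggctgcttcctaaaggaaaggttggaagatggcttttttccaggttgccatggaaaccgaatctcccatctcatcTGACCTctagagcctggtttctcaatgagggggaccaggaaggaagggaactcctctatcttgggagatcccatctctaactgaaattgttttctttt
Such windows, ending at the start of 1 reference transcript per gene, were read for 21751 genes and searched on both strands for AGGTCA and for a second half-site, AGTTCA. The first was present in 13.1% of all windows and the second in 12.1%. For Kdm6a, Paxip1, Pagr1a, Rbbp5 and Ash2l the window lies partly or wholly inside the gene as annotated, since another transcript starts further upstream. Among the 10 genes, only the windows of Kdm6b and Kdm6a held a match, 1 AGGTCA each, and that of Kdm6a lies inside the annotated gene, just after its first base. Direct repeats of half-sites that may have A or G as the first base and G or T as the third, with spacers of 1, 2 or 5 bases were present in none of the 10 windows and in 0.184%, 0.0919% and 0.0552% of all windows. The Kdm6b window held 3 CpG dinucleotides and 47.6% G and C, against medians of 8 and 53.2% over all windows, whereas that of Kmt2c held 45 and 90.8%. A match describes the letters of the window and is not a measured binding site.

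Kdm6a has a paralogue on the Y chromosome, Uty (chrY:1096855-1245759, minus strand), whose transcript was present in one clone and nearly absent from the other (given below). Both genes are shown by 30 bases, at chrX:18028771-18028800 on the plus strand for Kdm6a and at chrY:1245771-1245800 on the minus strand for Uty. The Kdm6a stretch spans the annotated start of the gene, whereas the Uty stretch lies wholly upstream of its own. The Uty stretch was picked as the one most like that of Kdm6a in the window read for Uty, not by its distance from the start. Capitals mark the 22 of 30 positions at which the bases are the same. This is thus a highest match and no measure of conservation at the starts.
Kdm6a: GCgAGTCAACAAAgGTCACGTGaGgcgAgg
Uty: GCaAGTCAACAAAaGTCACGTGgGataAaa
Over the whole transcripts, the sequences can be told apart by short reads, since 12 of the 5448 stretches of 50 bases in Uty (0.22%) are also in Kdm6a.

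Kdm6a itself was slightly above its −IAA level after IAA in UTX-AID cells, without passing the test. Without IAA, Kdm6a was at 108.6 and 113.1 CPM at 0 h, 93.3 and 103.4 CPM at 3 h, and 106.2 and 110.1 CPM at 6 h of RA. With IAA, it was at 120.0 and 123.5 CPM, 106.6 and 113.2 CPM, and 117.3 and 115.9 CPM at the same times. Both +IAA libraries were above both −IAA libraries at each of the 3 times. Averaged over the times, the log2 fold change (+IAA over −IAA) was 0.13 ± 0.04 (SE, 6 libraries per arm), with a 95% interval of 0.05 to 0.21 and an adjusted p of 0.072 by the quasi-likelihood test of edgeR, Benjamini-Hochberg adjusted over 16268 genes. This missed the threshold of 0.05 used for a call throughout. Kdm6a was the only one of the 10 genes whose arms were apart in the same direction at every time in UTX-AID, as were 5.08% of all genes tested. The call depended on the model: the adjusted p was 0.013 with DESeq2, 0.024 once GC content and transcript length were corrected for, and 0.020 with a block for replicate number. Kdm6a did not pass without the filter on low counts or with all 24 libraries in one fit. In edgeR it passed in 0 of the 12 fits that left out a library (adjusted p 0.053 to 0.19).

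Kdm6b, which encodes the other H3K27 demethylase of this family, did not pass the test after IAA in UTX-AID. It was at 43.6 and 50.3 CPM at 0 h, 77.0 and 84.6 CPM at 3 h, and 84.3 and 81.7 CPM at 6 h of RA without IAA. With IAA, Kdm6b was at 41.2 and 48.1 CPM, 72.3 and 84.5 CPM, and 74.8 and 87.0 CPM. The arms overlapped at every time. The average log2 fold change was −0.05 ± 0.06 with an adjusted p of 0.73 in edgeR's test. Its 95% interval, −0.18 to 0.07, corresponds to 0.884 to 1.05 times the level without IAA.

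Kmt2c, the gene of the MLL3 methyltransferase, had the largest difference between the arms of UTX-AID among the 10 genes, and it was lower with IAA. It was at 84.2 and 79.5 CPM, 103.0 and 93.0 CPM, and 99.8 and 105.1 CPM at 0, 3 and 6 h without IAA. With IAA, Kmt2c was at 69.9 and 79.4 CPM, 79.3 and 93.8 CPM, and 83.9 and 89.9 CPM. The arms were apart at 0 and 6 h and overlapped at 3 h. The average log2 fold change was −0.19 ± 0.05 (95% interval −0.30 to −0.08), and the adjusted p of 0.077 by edgeR missed the threshold. It passed with DESeq2 (0.015), without the filter on low counts (0.023), with the replicate block (0.030) and with all 24 libraries in one fit (0.045). It did not pass with the GC and length correction. In edgeR it passed in 0 of the 12 fits that left out a library (adjusted p 0.0503 to 0.20). Kmt2d, the gene of MLL4, was at 116.0 to 137.3 CPM without IAA and 110.5 to 127.4 CPM with it, with overlapping arms and a log2 fold change of −0.05 ± 0.04 (adjusted p = 0.70, edgeR).

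None of the 6 other subunit genes passed the test in UTX-AID after IAA. Among the genes particular to MLL3/4 complexes, the log2 fold changes were 0.04 ± 0.06 for Ncoa6, a nuclear receptor coactivator, 0.01 ± 0.04 for Paxip1, which encodes the BRCT-domain protein PTIP, and 0.03 ± 0.06 for Pagr1a, which encodes its partner PA1. Among the core genes, they were 0.01 ± 0.04 for Wdr5, 0.08 ± 0.03 for Rbbp5 and −0.03 ± 0.03 for Ash2l. The lowest adjusted p of these 6 was 0.31, that of Rbbp5 (edgeR). Thus 0 of the 10 genes were called in UTX-AID after IAA, where 2.62% of all genes were, 140 higher and 287 lower. DESeq2 called 2 of the 10, Kdm6a and Kmt2c, and 716 of all genes. In edgeR, 3 of the 10 had an unadjusted p under 0.05, Rbbp5 being the third, among 2543 such genes in all. The median log2 fold change was 0.01 over the 10 genes and −0.00 over all genes tested. At single RA times 0 of 10 were called by either tool, with 0, 2 and 1 genes at an unadjusted p under 0.05 in edgeR at 0, 3 and 6 h. Of all genes, edgeR called 0.0430% at 0 h, 0.264% at 3 h and 0.0307% at 6 h. An unadjusted p under 0.05 was found for 1303, 1518 and 1019 of 16268 genes at these times (edgeR).

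**Figure D1:**
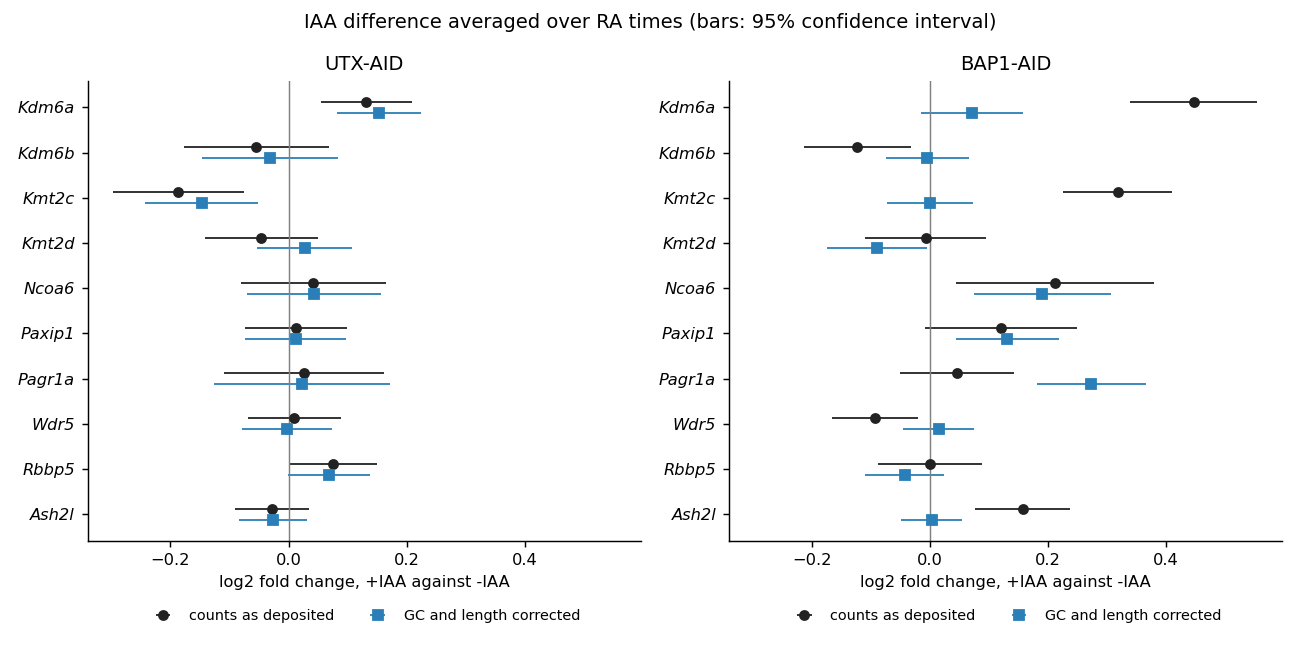
The log2 fold change of +IAA over −IAA, averaged over the 3 RA times, is plotted for each of the 10 genes in UTX-AID and BAP1-AID, with 95% intervals as bars. In UTX-AID the values lie between −0.19 (Kmt2c) and 0.13 (Kdm6a), and Kdm6a and Kmt2c reach 0.45 and 0.32 in BAP1-AID.

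RA raised Kdm6b in both clones and in both arms. In UTX-AID the 4 libraries at 0 h were at 41.2 to 50.3 CPM, those at 3 h at 72.3 to 84.6 CPM and those at 6 h at 74.8 to 87.0 CPM. In BAP1-AID, Kdm6b was at 63.0 and 65.6 CPM, 118.7 and 133.1 CPM, and 128.2 and 132.7 CPM at 0, 3 and 6 h without IAA, and at 58.6 and 61.9 CPM, 119.6 and 119.8 CPM, and 117.2 and 114.3 CPM with IAA. Every library at 3 or 6 h was above every library at 0 h of the same clone. The log2 fold change at 3 h averaged over the arms was 0.81 ± 0.07 in UTX-AID (1.75-fold, 95% interval 1.57 to 1.94, adjusted p = 1.2e-06 by edgeR) and 0.98 ± 0.05 in BAP1-AID (1.97-fold, 1.82 to 2.13, adjusted p = 5.8e-08). At 6 h it was 0.85 ± 0.07 (adjusted p = 4.4e-07) and 0.98 ± 0.05 (adjusted p = 3.5e-08, edgeR). The level at 6 h did not pass the test against that at 3 h, with log2 differences of 0.04 in UTX-AID and 0.01 in BAP1-AID (adjusted p = 0.91 and 0.96, edgeR). The 4 primitive endoderm markers examined summed to 0.834 to 3.01 CPM at 0 h and 2.04 to 3.39 CPM at 6 h in UTX-AID, and to 1.46 to 2.60 CPM and 5.41 to 6.72 CPM in BAP1-AID. Gata6 reached the highest level of these 4, 2.19 CPM in UTX-AID and 5.01 CPM in BAP1-AID. The 4 trophoblast markers summed to 4.38 to 6.44 CPM at 0 h and 3.96 to 5.67 CPM at 6 h in UTX-AID. In BAP1-AID they summed to 11.5 to 15.7 CPM and 6.24 to 8.29 CPM. The 4 neural markers summed to 49.0 to 65.2 CPM and 49.5 to 60.7 CPM in UTX-AID. In BAP1-AID they summed to 81.1 to 86.5 CPM and 80.7 to 91.2 CPM. The part of any of these markers in the rise of Kdm6b was not tested.

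**Figure D2:**
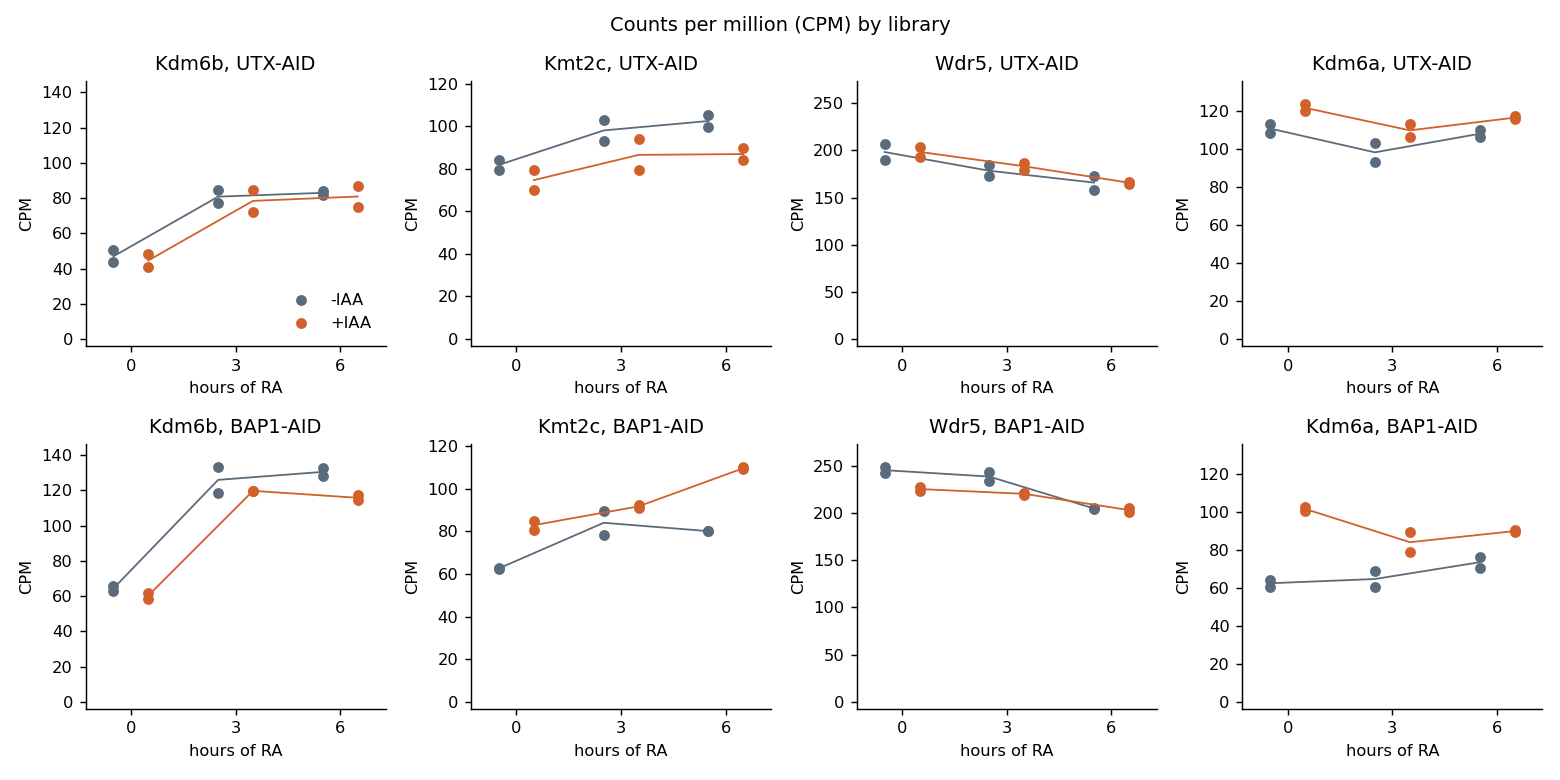
CPM of Kdm6b, Kmt2c, Wdr5 and Kdm6a is plotted by hours of RA on a scale starting at 0, with one point per library, lines through the group means, and clone and IAA arm marked. Kdm6b rises from 41.2 to 50.3 CPM at 0 h to 72.3 to 84.6 CPM at 3 h in UTX-AID, and the arms lie together.

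The test found no difference in this rise between the arms of either clone. In UTX-AID the Kdm6b log2 fold change at 3 h was 0.79 ± 0.10 without and 0.82 ± 0.10 with IAA, and at 6 h 0.83 ± 0.10 and 0.87 ± 0.10. The difference between the arms was 0.03 ± 0.14 at 3 h (95% interval −0.27 to 0.33) and 0.04 ± 0.14 at 6 h (−0.26 to 0.34). For BAP1-AID the values were 0.03 ± 0.10 and −0.08 ± 0.10. None of the 10 genes passed edgeR's test of an RA response altered by IAA in either clone at either time. DESeq2 called 1 of the 10, Kdm6a in BAP1-AID at 6 h, among 304 genes in all. In edgeR, Kdm6a in BAP1-AID had an unadjusted p under 0.05 at 3 and 6 h, and Kmt2c at 3 h. At 6 h such a p was found for 1615 of 15695 genes of BAP1-AID. Over all genes tested, the share called in UTX-AID was 0.0123% (3 h) and 0% (6 h), and that in BAP1-AID 0% (3 h) and 0.153% (6 h). Where edgeR called 0 genes, 558 genes of UTX-AID at 6 h and 1176 of BAP1-AID at 3 h had an unadjusted p under 0.05, and DESeq2 called 1 and 144. The RA response of Kdm6b did not pass the test between the clones, with UTX-AID minus BAP1-AID at −0.17 ± 0.10 at 3 h and −0.13 ± 0.10 at 6 h (adjusted p = 0.71 and 0.62, edgeR).

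Kmt2c also rose with RA, by less than Kdm6b. In BAP1-AID it was at 62.4 and 63.0 CPM at 0 h, 78.4 and 89.8 CPM at 3 h, and 80.2 and 80.1 CPM at 6 h without IAA, and at 80.9 and 85.1 CPM, 91.1 and 92.5 CPM, and 109.2 and 110.2 CPM with IAA. Within each arm, all libraries at 3 and 6 h were above those at 0 h. In UTX-AID (values above), this held within the −IAA arm, while the +IAA libraries at 0 and 3 h overlapped. The log2 fold change at 6 h was 0.28 ± 0.06 in UTX-AID (adjusted p = 0.0074, edgeR) and 0.38 ± 0.05 in BAP1-AID (adjusted p = 0.00016). At 3 h it was 0.24 ± 0.06 (adjusted p = 0.025) and 0.28 ± 0.05 (adjusted p = 0.0029, edgeR). The UTX-AID call at 3 h was lost when any 1 of 4 libraries was left out, up to an adjusted p of 0.14 without the +IAA 3 h replicate 2.

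Wdr5, which encodes the core subunit that docks the methyltransferase through its WD repeats, fell by 6 h of RA. In UTX-AID it went from 190.1, 206.5, 192.8 and 204.1 CPM at 0 h (−IAA and +IAA replicates in turn) to 173.3, 158.4, 166.8 and 164.7 CPM at 6 h. In BAP1-AID the 0 h libraries were at 248.7, 242.4, 223.0 and 228.0 CPM and the 6 h libraries at 205.4, 204.4, 205.2 and 201.3 CPM. The times did not overlap in either clone. Wdr5 fell by 0.25 ± 0.05 on the log2 scale in UTX-AID (adjusted p = 0.0011) and by 0.20 ± 0.04 in BAP1-AID (adjusted p = 0.0028, edgeR). Its log2 fold change at 3 h was −0.13 in UTX-AID and did not pass the test there (adjusted p = 0.12, edgeR).

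Kdm6a was called lower at 3 h in UTX-AID, where its 0 h libraries were at 108.6 to 123.5 CPM and its 3 h libraries at 93.3 to 113.2 CPM. The times overlapped, with a log2 fold change of −0.15 ± 0.04 (adjusted p = 0.044, edgeR), and the call was lost when any 1 of 9 of the 12 libraries was left out (adjusted p up to 0.18). The remaining 6 genes did not pass edgeR's test against 0 h in either clone. DESeq2 called 2 of them, Rbbp5 at 3 h in UTX-AID and Pagr1a at 6 h in BAP1-AID. It thus called 4 of the 10 genes in each of these comparisons, with its share over all genes not given. Among the 6, Rbbp5 at 3 h in UTX-AID (log2 fold change −0.13) and Kmt2d and Pagr1a at 6 h in BAP1-AID had all 4 libraries below those at 0 h. Of the 10 genes, edgeR thus called 3 with RA at either time in UTX-AID, where 8.26% and 12.4% of all genes were called. In BAP1-AID edgeR called 2 at 3 h and 3 at 6 h, where 11.2% and 24% of all genes were called. Without the −IAA 3 h replicate 2 of BAP1-AID, 5 were called at 3 h and 5 at 6 h, with the share over all genes in that fit not given. Libraries at 3 h lay all above or all below those at 0 h for 3 of the 10 genes in UTX-AID and 1 in BAP1-AID, and for 11.2% and 10.5% of all genes. At 6 h this held for 2 and 4 of the 10 genes, and for 15.2% and 18.5% of all genes. Averaged over the arms, no RA change among the 10 genes reached 2-fold, and the median over the 10 genes at 6 h was −0.01 in UTX-AID and 0.04 in BAP1-AID, beside −0.00 and 0.01 over all genes.

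**Figure D3:**
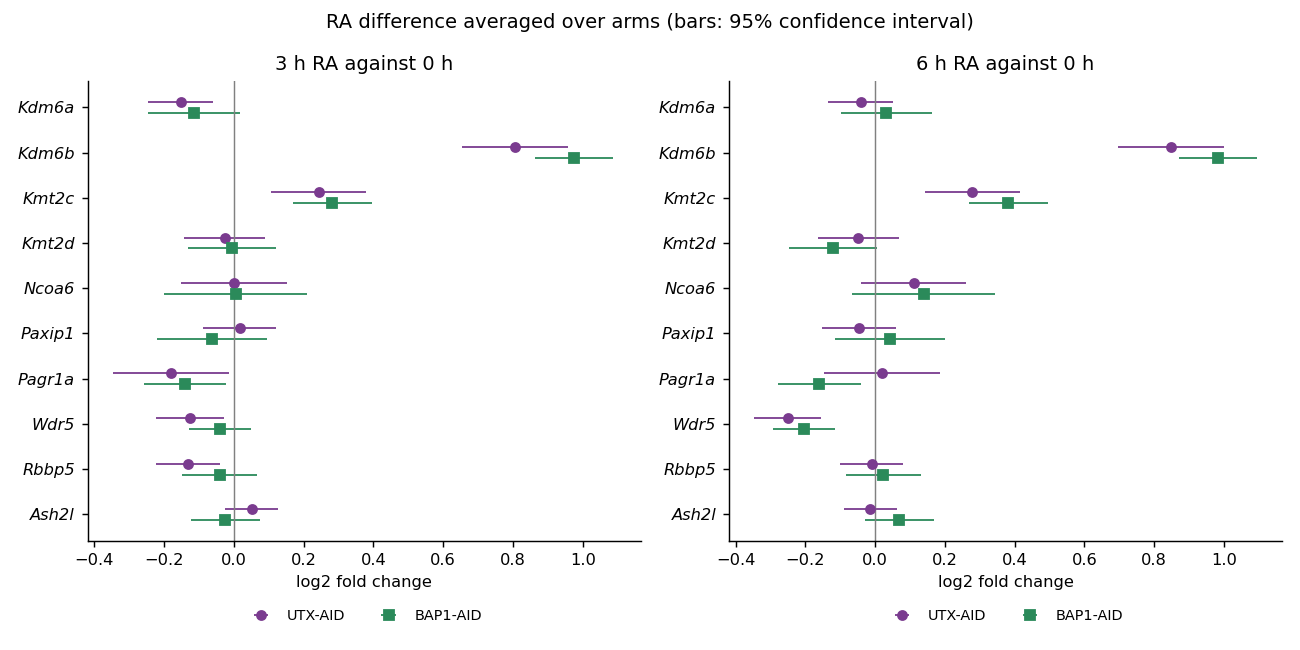
The log2 fold change after 3 or 6 h of RA against 0 h, averaged over the IAA arms, is plotted for each of the 10 genes in both clones with 95% intervals. Kdm6b stands at 0.81 to 0.98, Kmt2c at 0.24 to 0.38, and Wdr5 is at −0.25 and −0.20 at 6 h.

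In BAP1-AID, where BAP1 and not UTX is degraded, 6 of the 10 genes were called after IAA, beside 36.1% of all genes tested. The 3 with the smallest adjusted p, Kdm6a, Kmt2c and Ash2l, no longer passed once GC content and transcript length were corrected for, with log2 fold changes of 0.07, 0.00 and 0.00 (described further below). Kdm6a was at 60.6 and 64.2 CPM, 60.4 and 68.9 CPM, and 76.3 and 70.7 CPM at 0, 3 and 6 h without IAA. With IAA, Kdm6a was at 100.4 and 102.7 CPM, 89.4 and 78.7 CPM, and 90.6 and 89.2 CPM. All +IAA libraries were above all −IAA libraries of the clone. The average log2 fold change was 0.45 ± 0.05 (adjusted p = 2.5e-05, edgeR), with 0.69 at 0 h, 0.38 at 3 h and 0.27 at 6 h. Kmt2c was higher by 0.32 ± 0.04 on average (adjusted p = 0.00011) with the arms apart at each time. Ash2l, the core subunit gene whose product stimulates the catalytic subunit, was at 654.4 to 774.2 CPM without and 801.6 to 855.6 CPM with IAA, a log2 fold change of 0.16 ± 0.04 (adjusted p = 0.0057, edgeR). These arms did not overlap either.

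Ncoa6 was called higher in BAP1-AID (0.21 ± 0.08, adjusted p = 0.048) and Kdm6b and Wdr5 lower (−0.12 ± 0.04, adjusted p = 0.036, and −0.09 ± 0.03, adjusted p = 0.046), all by edgeR. These 3 calls were lost in 8, 10 and 11 of the 12 fits that left out a library. Paxip1, Pagr1a, Kmt2d and Rbbp5 did not pass, although Paxip1 passed without the −IAA 3 h replicate 2 (log2 fold change 0.20, adjusted p = 0.00058). In all, 4 of the 10 genes were called higher and 2 lower, where 36.1% of all genes tested were called. At single times 2 of 10 were called at 0 h, 2 at 3 h and 1 at 6 h, against 18.5%, 13.3% and 12.5% of all genes. These counts turned on the −IAA 3 h libraries: without replicate 1 they were 5, 1 and 4, and without replicate 2 they were 4, 6 and 4. The share over all genes in those fits is not given, so nothing about the 10 genes is read from this. The arms were apart in the same direction at every time for Kdm6a, Kmt2c and Ash2l, 3 of the 10, and for 26.6% of all genes.

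The BAP1-AID change moved with the base composition of the transcripts. Across genes, the Spearman correlation of the IAA log2 fold change with GC content was −0.472 for BAP1-AID but 0.0228 for UTX-AID, a description across genes that share the same libraries. Among BAP1-AID genes, the fifth lowest in GC had a median of 0.30 and the fifth highest one of −0.17. Kdm6a (41.2% GC), Ash2l and Kmt2c (46.5% each) lay below the median of tested genes, 50.5%, and Kdm6b (59.6%) and Wdr5 (51.5%) above it. With GC content and transcript length corrected for, the log2 fold changes were 0.07 for Kdm6a (adjusted p = 0.21), 0.00 for Kmt2c, 0.00 for Ash2l, −0.00 for Kdm6b and 0.02 for Wdr5, and none of the 5 passed edgeR's test. Ncoa6 (0.19, adjusted p = 0.019), Pagr1a (0.27, adjusted p = 0.0006) and Paxip1 (0.13, adjusted p = 0.028) were then called higher. The correction left the RA changes of Kdm6b in place, at 0.75 and 0.80 in UTX-AID and 0.89 and 0.97 in BAP1-AID at 3 and 6 h. Whether the trend arose in the cells or in library preparation was not tested.

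Between the clones, the response to IAA differed for 3 of the 10 genes, where 25.9% of all genes differed. UTX-AID minus BAP1-AID was −0.33 ± 0.06 for Kdm6a (adjusted p = 0.0004), −0.52 ± 0.07 for Kmt2c (adjusted p = 6.8e-06) and −0.20 ± 0.05 for Ash2l (adjusted p = 0.0065) on the log2 scale by edgeR. After the GC and length correction these differences were 0.08, −0.15 and −0.03 and did not pass, and Pagr1a alone passed (−0.26, adjusted p = 0.037).

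All 10 genes were called different in level between the clones without IAA, as were 67.3% of all genes. The clones are 1 line each, so the tag, the clone and any batch between them cannot be told apart. Kdm6a, Kmt2c and Ash2l were higher in UTX-AID, by 0.68, 0.34 and 0.26 on the log2 scale. The other 7 were lower there, from −0.17 for Rbbp5 to −0.65 for Kmt2d. The GC and length correction took the difference of Kdm6a to −0.24 (adjusted p = 6.7e-06, edgeR) and those of Kdm6b and Wdr5 to −0.02 and −0.04, so that the direction for Kdm6a depended on it. It left Kmt2d at −0.42, Pagr1a at −0.31, Rbbp5 at −0.21 and Ash2l at 0.18, each called under both.

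Levels were compared between genes as CPM per kilobase of one annotated transcript, over the 6 −IAA libraries of a clone. Ash2l was the highest of the 10, at 128 ± 6.06 CPM per kilobase (SD) in UTX-AID and 108 ± 6.38 in BAP1-AID, followed by Wdr5 at 62.2 ± 5.70 and 79.0 ± 6.82. Next were Rbbp5 (24.7 ± 1.71 and 28.0 ± 1.58) and Pagr1a (20.7 ± 2.60 and 32.0 ± 2.02), whose order was reversed between the clones and whose libraries overlapped in UTX-AID. The core subunit genes, which also serve the other COMPASS complexes, were thus all above the methyltransferase genes. In UTX-AID, Kdm6a followed at 16.0 ± 1.05 CPM per kilobase, above Paxip1 (10.9 ± 0.479) and Kdm6b (10.6 ± 2.76), whose ranges overlapped. The highest Kdm6a library there (17.1) was above the lowest one of Pagr1a (16.6). The lowest were Kmt2d (6.37 ± 0.381), Kmt2c (5.59 ± 0.619) and Ncoa6 (3.18 ± 0.272), of which Kmt2d and Kmt2c overlapped. In BAP1-AID, Paxip1 (16.1 ± 1.54) and Kdm6b (16.1 ± 5.02) did not differ beyond their spread, nor did Kmt2d (10.1 ± 0.766) and Kdm6a (10.1 ± 0.943), nor Kmt2c (4.49 ± 0.641) and Ncoa6 (4.24 ± 0.543). Part of the SD of Kdm6b is its rise with RA. With the union of all exons as the length, 11 of the 20 ranks changed, and Paxip1 went from the sixth to the eighth in UTX-AID and from the fifth to the eighth in BAP1-AID. Pagr1a was then above Rbbp5 in both clones, at 16.8 against 14.8 in UTX-AID and 26.0 against 16.8 in BAP1-AID.

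**Figure D4:**
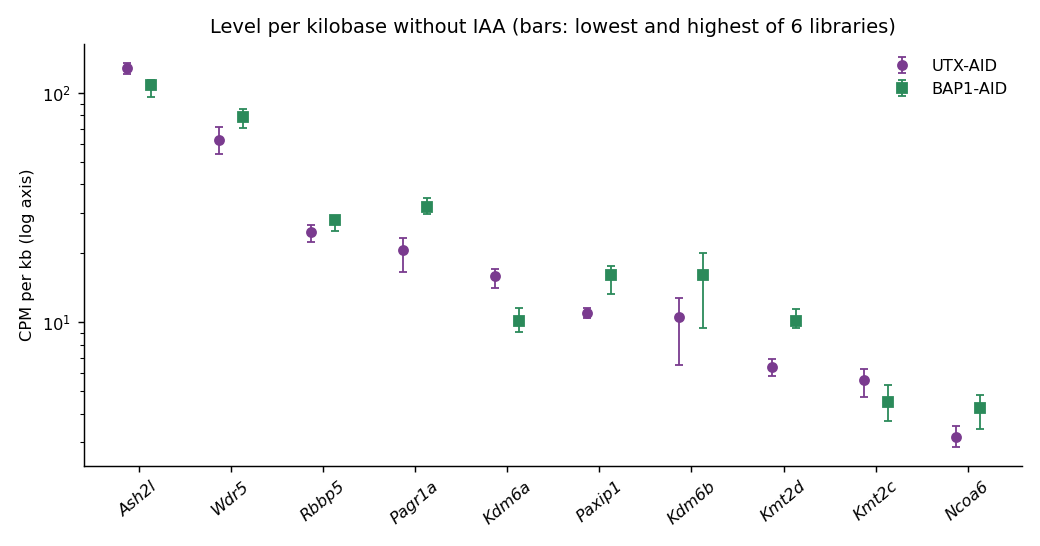
CPM per kilobase of transcript is plotted on a log axis for the 10 genes in the −IAA libraries of each clone. Points are means of 6 libraries, and bars run from the lowest to the highest library. Ash2l is highest, near 128 in UTX-AID and 108 in BAP1-AID, and Ncoa6 and Kmt2c are lowest.

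Some gene models overlap others, and whether reads were counted by strand was not given in the sources used here. Pagr1a shares 82.2% of its exon sequence with Gm42742 on the same strand and 19.6% with Pagr1b, so that its counts are uncertain. Of the exon sequence of Ash2l, 26.2% overlaps Star on the opposite strand. The opposite-strand overlap was 18% for Rbbp5 (6030442K20Rik), 15.6% for Kmt2c (Gm42585), 6.85% for Paxip1 (Gm73078) and 4.11% for Kdm6b (Kdm6bos).

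Uty, the Y-linked paralogue of Kdm6a, which has little demethylase activity, could be followed in BAP1-AID alone. In UTX-AID it was at 0 in 11 of 12 libraries, and the +IAA 6 h replicate 2 held 6 counts (0.124 CPM). A count of 0 allows up to 3 counts, 0.0545 to 0.0693 CPM in these libraries, for counting error only. In BAP1-AID, Uty was at 7.82 and 9.59 CPM, 9.35 and 10.2 CPM, and 11.1 and 9.52 CPM without IAA at 0, 3 and 6 h, and at 11.97 and 14.5 CPM, 15.2 and 14.4 CPM, and 19.1 and 17.7 CPM with IAA. The lowest −IAA library of BAP1-AID was at least 113-fold higher than that limit per library in the −IAA libraries of UTX-AID. The other Y-linked demethylase gene examined, Kdm5d, had 3 counts over all UTX-AID libraries and 303 over those of BAP1-AID, where it was higher with IAA (1.04 ± 0.35, adjusted p = 0.034, and 0.75 after the GC and length correction, adjusted p = 0.13, edgeR). Uty was higher with IAA in BAP1-AID by 0.67 ± 0.08 (adjusted p = 3.6e-05), and by 0.09 after the GC and length correction (adjusted p = 0.44, edgeR), with 35.3% GC, the lowest of the genes named here. Its rise at 6 h of RA, 0.36 (adjusted p = 0.014, edgeR), was −0.00 after the correction.

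Among the other H3K27 demethylase genes, Kdm7a, which encodes a demethylase of H3K9 and H3K27, was induced by RA in UTX-AID. It was at 58.8 and 58.4 CPM at 0 h, 92.1 and 89.1 CPM at 3 h, and 82.5 and 90.1 CPM at 6 h without IAA, and at 61.1 and 69.5 CPM, 87.3 and 94.8 CPM, and 79.6 and 90.5 CPM with IAA. All libraries at 3 and 6 h were above those at 0 h. The log2 fold change was 0.56 ± 0.06 at 3 h (adjusted p = 7.7e-06) and 0.48 ± 0.06 at 6 h (adjusted p = 2.9e-05, edgeR). In BAP1-AID, Kdm7a was at 12.1 to 21.5 CPM without and 21.4 to 27.9 CPM with IAA, and its RA changes of 0.20 and 0.14 did not pass (adjusted p = 0.27 and 0.34, edgeR). With a library left out, the 3 h value ranged from 0.08 to 0.28. Within the −IAA arm of BAP1-AID, DESeq2 called the 3 h change of Kdm7a and edgeR did not. The difference in RA response between the clones did not pass either (0.37 at 3 h and 0.34 at 6 h, adjusted p = 0.22 and 0.15, edgeR), although it passed at 6 h after the GC and length correction (0.51, adjusted p = 0.019). With IAA, Kdm7a was higher in BAP1-AID by 0.67 ± 0.08 (adjusted p = 4.3e-05), or 0.17 after correction (adjusted p = 0.19), and not called in UTX-AID (0.04, adjusted p = 0.74, edgeR). Phf8, of the same family, was called in neither clone after IAA, at 0.08 in UTX-AID and −0.01 in BAP1-AID (adjusted p = 0.44 and 0.92, edgeR).

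**Figure D5:**
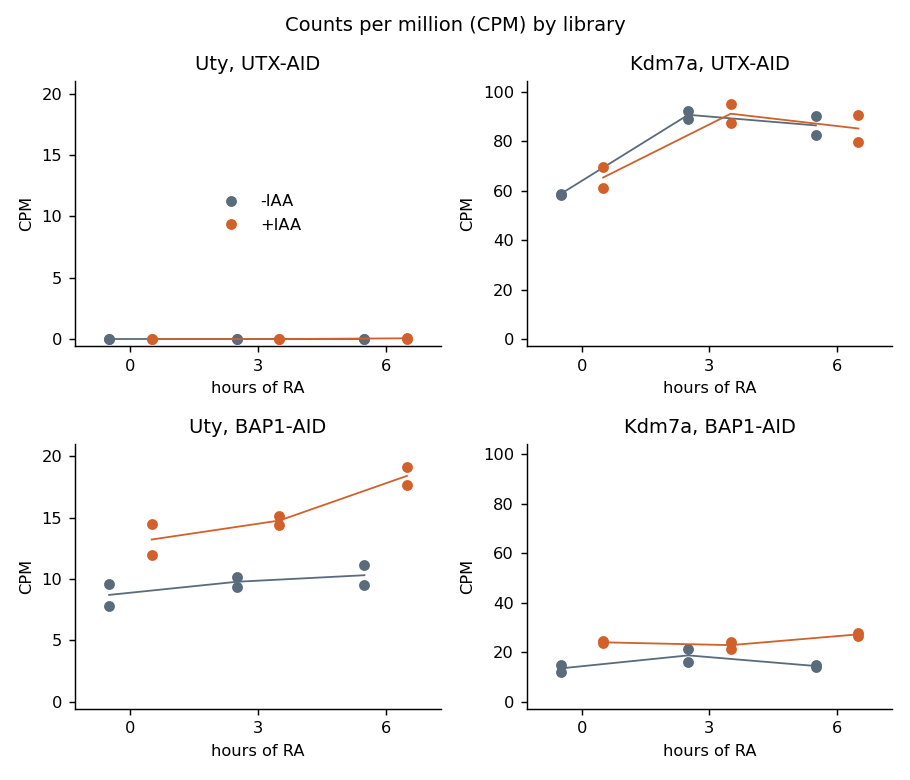
CPM of Uty and Kdm7a is plotted by hours of RA, one point per library, with clone and IAA arm marked. Uty stays at or near 0 in UTX-AID and at 7.82 to 19.1 CPM in BAP1-AID, whereas Kdm7a is at 58.4 to 94.8 CPM in UTX-AID and 12.1 to 27.9 CPM in BAP1-AID.

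The other COMPASS genes, H3K4 demethylases and enhancer coactivators were taken as a list of 30 genes, Uty, Kdm7a and Phf8 included. After IAA in UTX-AID, edgeR called 0 of the 28 tested, 6 had an unadjusted p under 0.05, and DESeq2 called 1, the MLL1 gene Kmt2a. Over all 16268 genes, edgeR called 2.62%, 2543 had an unadjusted p under 0.05 in edgeR, and DESeq2 called 716. In BAP1-AID, 9 of 30 were called higher and 4 lower after IAA, where 36.1% of all genes were called, so that nothing is read from the count. They included Bod1l (0.68) and Psip1 (0.37), COMPASS-associated proteins, the H3K4 demethylase gene Kdm5a (0.45) and the coactivator gene Ncoa2 (0.35) among the higher. Of the exon sequence of Psip1, 50.6% overlaps Snapc3 on the opposite strand, so that its counts are uncertain. Men1 (−0.33), which encodes menin of the MLL1/2 complexes, and Cxxc1 (−0.25), which encodes the CpG-binding subunit of the SET1 complexes, were lower. After the GC and length correction 6 were called higher and 5 lower, beside 15.2% and 12.6% of all genes, with Bod1l (0.40), Ncoa2 (0.24) and Men1 (−0.12) among them. With RA, Hcfc2, a host cell factor gene, rose in both clones at 6 h, by 0.42 in UTX-AID and 0.96 in BAP1-AID, and this response differed between them (−0.54, adjusted p = 0.049, edgeR), but not after the GC and length correction (−0.47, adjusted p = 0.11). Ncoa1, which encodes the nuclear receptor coactivator SRC-1, fell in both at 6 h, by 0.32 and 0.54 on the log2 scale. Ncoa3, of the same coactivator family, was higher at 3 h, by 0.17 in UTX-AID and 0.41 in BAP1-AID. Kdm5b was lower at 6 h in UTX-AID (−0.20), and Setd1b (−0.23) and Ncoa2 (−0.27) were lower at 6 h in BAP1-AID. Bod1l was the one listed gene whose RA response IAA altered, at 6 h in BAP1-AID (0.69 ± 0.11, adjusted p = 0.040, edgeR), and this did not pass after the correction (0.79, adjusted p = 0.079).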

How the data were processed

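PolyA RNA of 24 mouse ESC libraries was sequenced by the authors, who aligned reads to mm39 with HISAT2 (2.2.1), handled alignments with SAMtools (1.19) and made gene counts with StringTie (2.2.1), per the labels. The deposited table holds estimated counts per gene symbol, whole numbers derived from coverage, neither normalized nor filtered. The authors tested expression with DESeq2. The gene annotation and the strandedness of counting were not given in the sources used here. Libraries were grouped by clone, IAA arm and RA time from their titles. Totals were 42018795 to 54034789, so that 3 counts, the limit a count of 0 allows, equal, on TMM-scaled totals, 0.0545 to 0.0693 CPM.

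Genes were kept by edgeR's filterByExpr (minimum count 10, minimum total 15), which left 16268 genes in UTX-AID and 15695 in BAP1-AID. Each clone was fitted apart over its 12 libraries with TMM factors in R 4.3.3 (edgeR 4.0.16, limma 3.58.1) by the quasi-likelihood test, with p-values adjusted by Benjamini-Hochberg over all genes of the fit and a threshold of 0.05. Differences between clones came from a fit of all 24 libraries (16816 genes). Fold changes are on the log2 scale with SE and 95% intervals. The GC and length correction entered splines with 5 degrees of freedom per library as offsets. Alternatives were DESeq2 1.42.0, RLE size factors, no filter, the replicate number as a block, a fit of all libraries together, a fold rule, exon-union lengths and each library left out. Positions, lengths and GC content are from the GENCODE annotation of mm39, in which 23897 of 26264 symbols (91.0%) had a match. The fits were tested on simulated data. Tables and figures used Python 3.11.15 (numpy 2.4.6, pandas 2.3.3, scipy 1.17.1, matplotlib 3.10.9).

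The genes, the lists of related genes and the tests were chosen with earlier results of these data known. All 10 genes were named in every comparison. Of the related lists, genes called in the comparison described were named, up to 8 by smallest adjusted p, with Uty, Kdm5d, Kdm7a and Phf8 always. Chromatin data were not analysed here. Some genes that the rule names are not reported here.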

Additional observations from a re-analysis of the deposited data

Results flagged for a closer look

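The effect of IAA, averaged over the RA times, differed between the clones by edgeR's test of the difference itself (UTX-AID minus BAP1-AID, log2 scale) for 4 of the named genes. The values were −0.33 for Kdm6a, −0.52 for Kmt2c, −0.20 for Ash2l and −0.64 for Kdm7a. The adjusted p was 0.0004, 6.8e-06, 0.0065 and 1.8e-05, respectively. All 4 lie below the median GC content of tested genes, and after the GC and length correction none of them passed the test, with values of 0.08, −0.15, −0.03 and −0.08.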

How the results depend on the processing

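The RA calls of Kdm6b at 3 and 6 h, of Kmt2c and Wdr5 at 6 h in both clones and of Kmt2c at 3 h in BAP1-AID kept their direction and passed the threshold under DESeq2, RLE size factors, no filter, the replicate block, all 24 libraries in one fit, the GC and length correction and with each library left out. Averaged over the arms none of these changes is past 2-fold, so a rule that also asks for an absolute log2 fold change over 1 called 0 of the 10 genes in the comparisons for which it was run. It was not run within single arms, where Kdm6b at 6 h of RA in BAP1-AID without IAA was at 1.03.

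The count of the 10 genes called after IAA in UTX-AID rose from 0 to 2 with DESeq2, 2 with the replicate block, 1 without the filter, 1 with all 24 libraries, 1 with the GC and length correction and 1 with that correction and the block. At 3 h of RA in UTX-AID, 3 became 5 with the correction and 6 with correction and block, and 1 to 3 with a library left out. After IAA in BAP1-AID, 6 became 3 with the correction, with or without the block, and 3 to 6 with a library left out. At 0 h, 2 became 1 with the correction, with or without the block, and 2 to 5 with a library left out. At 3 h, 2 became 1 with the correction, with or without the block, 1 without the filter, and 0 to 6 with a library left out. At 6 h, 1 became 2 with DESeq2, 2 with all 24 libraries, 0 with the correction, with or without the block, and 1 to 4 with a library left out. With a library left out, RA at 3 h in BAP1-AID gave 2 to 5 calls, RA at 6 h gave 3 to 6, the RA response altered by IAA at 6 h gave 0 to 1 (1 with DESeq2), and the difference in the IAA effect between clones gave 3 to 5. The correction, with or without the block, left 1 of 3 differences in the IAA effect and 6 of 10 differences in level between clones. Without the correction, 25.9% and 67.3% of all genes were called in these 2 comparisons. Of the counts that rose in BAP1-AID with a library left out, the highest of each comparison, and 5 differences in the IAA effect, came without the −IAA 3 h replicate 1 or replicate 2. The lowest count after IAA at 3 h came without the +IAA 3 h replicate 1. In UTX-AID, RA at 3 h gave 1 call without the −IAA 0 h replicate 2, the −IAA 3 h replicate 1, the +IAA 0 h replicate 1 or the +IAA 3 h replicate 2. Shares over all genes with a library left out, or after the correction for the differences between clones, are not given. These counts are therefore not read as particular to the 10 genes.

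With the correction, alone and with the block, the direction was reversed for Wdr5 after IAA in BAP1-AID (0.0151 and 0.0151), Kdm6a in the IAA effect between clones (0.0777 and 0.0780) and in level (−0.24 and −0.25), Kdm6a at 6 h after IAA in BAP1-AID (−0.0641 and −0.0638), Kdm6b there (0.0116 and 0.0118), and Kmt2c at 3 h (−0.12 and −0.12). Uty at 6 h of RA became −0.00208 with the correction. With a library left out, Paxip1 and Ash2l at 3 h of RA in BAP1-AID ranged from −0.181 to 0.0197 and from −0.0985 to 0.0221, and were above 0 without the −IAA 3 h replicate 1. Pagr1a in the IAA effect between clones ranged from −0.0921 to 0.000863, the latter without the −IAA 3 h replicate 2 of UTX-AID. The cause of these reversals was not tested.

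Over all genes, calls after IAA in UTX-AID went from 427 to 716 with DESeq2, 813 with the block and 858 with correction and block. At single times there, 7, 43 and 5 calls at 0, 3 and 6 h became 74, 168 and 42 with DESeq2, 57, 113 and 27 without the filter, 68, 150 and 26 with the block, 31, 97 and 14 with all 24 libraries, and 71, 175 and 25 with correction and block. In BAP1-AID, 2896, 2084 and 1956 calls became 1615, 869 and 1239 with the correction and 1722, 993 and 1240 with correction and block. RA at 3 h in UTX-AID went from 1343 to 2048 with correction and block. The RA response altered by IAA gave 2 calls at 3 h in UTX-AID (5 without the filter, 0 with all 24 libraries) and 0 at 6 h (1 with DESeq2, 9 without the filter, 2 with the block, 2 with correction and block). In BAP1-AID it gave 0 at 3 h (144 with DESeq2, 19 with all 24 libraries) and 24 at 6 h (304, 91 and, with the block, 15). Same-numbered libraries of different groups deviated from their group means with r = 0.035 to 0.195 in UTX-AID and −0.080 to 0.206 in BAP1-AID, so the numbers were not taken to pair the libraries.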

Other observations

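Among 8493 genes with a mean of at least 10 CPM, profiles among those most like that of Kdm6a over the 12 group means, by Pearson correlation of log2(CPM + 1), were those of Cpne3 (r = 0.989), Mettl4 (0.987), Lims1 (0.986) and Wdhd1 (0.985). Those most like Kdm6b were Ccdc120 (r = 0.991), Ei24 (0.991), Nectin2 (0.989), Twf2 (0.988) and 2610528J11Rik (0.988). The group means share libraries and differ mainly between the clones, so the correlations are a description. Kdm6a and Kdm6b themselves had r = −0.56. The level differences between the clones that enter it, 0.68 for Kdm6a and −0.57 for Kdm6b (log2, UTX-AID against BAP1-AID), became −0.24 and −0.02 after the GC and length correction.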
